A study of Mus musculus with 24 samples.

Results

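Clu, Apoe, Apod, Apoc1, Abca1, Abcg1, Lcat and Lpl, 8 genes for secreted lipid carriers, lipid exporters and lipoprotein enzymes, were followed through 24 bulk RNA-seq libraries of sorted mouse astrocytes. They were taken by gene name from 24421 gene rows, and all 8 were present in every library's table. The cells had been sorted from 4 regions of C57BL6 mice aged 20 weeks (brainstem, cortex, hippocampus and olfactory bulb), and each of the 8 groups of region and genotype had 3 libraries. Mice labelled knockout carried NFIAfl/fl, Aldh1l1-CreER and Aldh1l1-GFP, and their controls carried NFIAfl/fl and Aldh1l1-GFP without the Cre transgene. Floxed alleles of Nfia, which encodes the transcription factor nuclear factor I A, were thus shared by both genotypes, and so was the green fluorescent reporter used for sorting. CreER is a tamoxifen-dependent recombinase, and here the Aldh1l1 promoter, active mainly in astrocytes, drove both the recombinase and the reporter. The timing and dose of induction, and whether mice were pooled or gave several regions, are not given in the sources used here, so p-values measure only the spread between these libraries. Nfia itself was higher in the libraries labelled knockout, at 7457 to 13264 against 3294 to 7428 in controls over the 4 regions (average log2 fold change 0.90, SE 0.09, adjusted p = 1.92e-07). Gene-level values do not resolve the floxed exon, and the groups are therefore named by their labels throughout.

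Astrocytes make most of the lipoprotein particles of the brain. They secrete apolipoprotein E and clusterin, which take up cholesterol and phospholipid exported by the ATP-binding cassette transporters ABCA1 and ABCG1. Lecithin-cholesterol acyltransferase, the product of Lcat, esterifies the cholesterol on those particles, and lipoprotein lipase, the product of Lpl, hydrolyses the triglyceride of lipoproteins. Abca1, Abcg1, Apoe, Apoc1 and Lpl are known targets of the sterol-sensing liver X receptors.

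Libraries held between 1090777 reads (brainstem labelled knockout 3) and 24297573 reads (hippocampus labelled knockout 1). Levels below are reads rescaled by 1 factor per library over all 24 libraries. Fold changes between genotypes are contrasts within each region, or their average, from 1 limma fit to all 24 libraries. That fit used log2 of the deposited value plus 5, which understates changes of genes at low levels. A gene was called when its p, adjusted by Benjamini-Hochberg over 12673 genes, was under 0.05. All 13 astrocyte markers were detected in every group, but their levels were not all alike between genotypes. Averaged over the 4 regions, Aldh1l1, Aqp4 and Slc1a3 were called higher in libraries labelled knockout, Gfap was called lower, and 9 were not called. The median log2 fold change of the 13 was 0.39 in hippocampus, 0.43 in brainstem, -0.03 in olfactory bulb and -0.13 in cortex. The part of these differences in the levels below was not tested. Reads of Rn45s, a ribosomal RNA precursor, took 0.966% to 3.33% of each olfactory bulb and hippocampal library other than olfactory bulb labelled knockout 3, which had 20.8%, and 13.5% to 25.6% of each cortical and brainstem library. The summed level of 11 choroid plexus markers was 3669 to 9604 in hippocampal libraries labelled knockout against 109514 to 227048 in hippocampal controls. In cortex it was 1143 to 12378 in libraries labelled knockout against 97288, 8613 and 3523 in controls 1, 2 and 3. In brainstem it was 8474 to 141077 in libraries labelled knockout against 78588 to 376902 in controls. In olfactory bulb it was 2534 to 3046 in libraries labelled knockout against 2487 to 3011 in controls. Folr1 was at 0 in both groups there and Ttr at no more than 17.3, so other markers of the 11 made up nearly all of that sum. In bulk samples, fewer cells of a type and less RNA per cell cannot be told apart.

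Per kilobase of exon, Apoe and Clu were among the most abundant transcripts of these astrocytes and Lpl among the least. Among control libraries Apoe averaged 13079.6 per kilobase in olfactory bulb, 10892 in cortex, 8951 in hippocampus and 5675 in brainstem, which ranked it 5, 8, 8 and 14 in that order among 12221 genes with an annotated length. Clu ranked 11 in both control cortex and hippocampus, 33 in olfactory bulb and 38 in brainstem. Among the enzymes and exporters Lcat stood highest, ranking between 94 in control olfactory bulb and 291 in brainstem, and Abca1 ranked between 927 and 1704 in the same regions. Apod ranked from 61 in control olfactory bulb to 1084 in cortex. Apoc1 ranked between 1421 and 4020, Abcg1 between 7700 and 9055, and Lpl between 10510 and 12102.

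**Figure D1:**
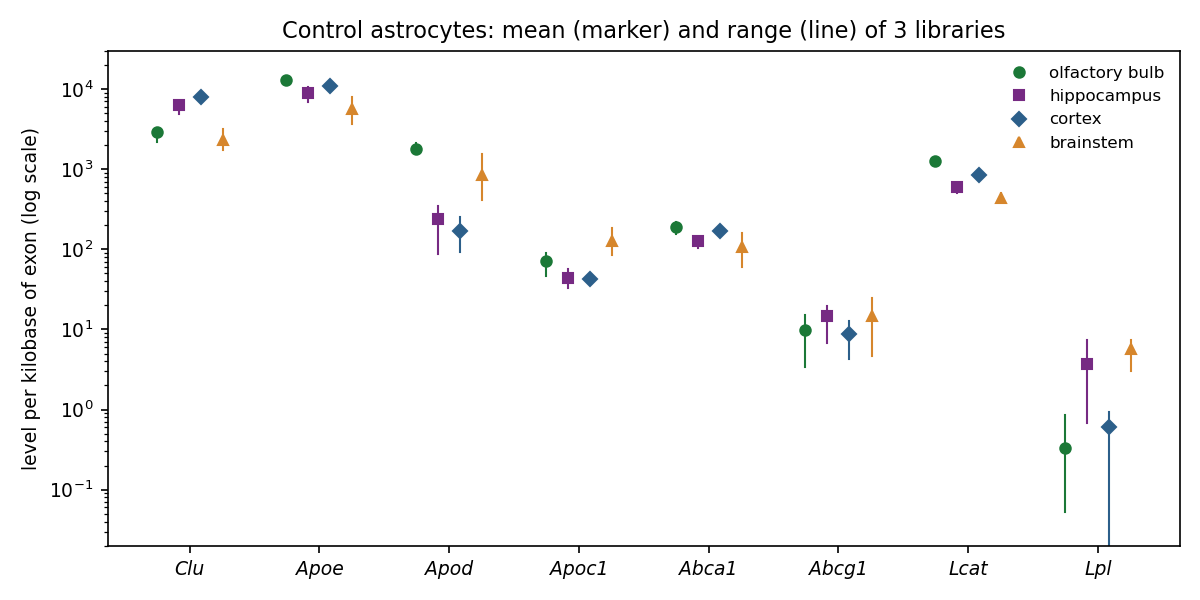
Level per kilobase of exon on a log scale for the 8 genes in the control astrocytes of each region, with markers for the mean of 3 libraries and lines for their range (a line that reaches the lower edge includes a library with 0 reads). Apoe and Clu stand at the top in every region, and Lpl and Abcg1 at the bottom.

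Between genotypes, Clu and Lcat were lower in the libraries labelled knockout, and the other 6 genes passed the test in no region. In olfactory bulb 1 of the 8 genes was called, Clu, lower, where 0.0868% of all genes were called and 0.0710% were called lower. Lcat was the 1 gene called in hippocampus, lower, against 2.51% of all genes, and 1.79% in that direction. In cortex 2 of 8 were called, Clu and Lcat, both lower, against 0.324% of all genes and 0.221% in that direction. Brainstem gave 0 of 8 with limma, against 0.773% of all genes, and also 0 at an unadjusted p under 0.05, 0 with edgeR and 0 with DESeq2. Averaged over the 4 regions, 2 of 8 were called, again Clu and Lcat, both lower, against 5.88% of all genes and 3.09% in that direction. The median log2 fold change of the 8 was -0.35 in hippocampus, -0.09 in cortex, -0.16 in both olfactory bulb and brainstem, and -0.24 on average, where the medians of all genes tested lay between -0.01 and 0.00.

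**Figure D2:**
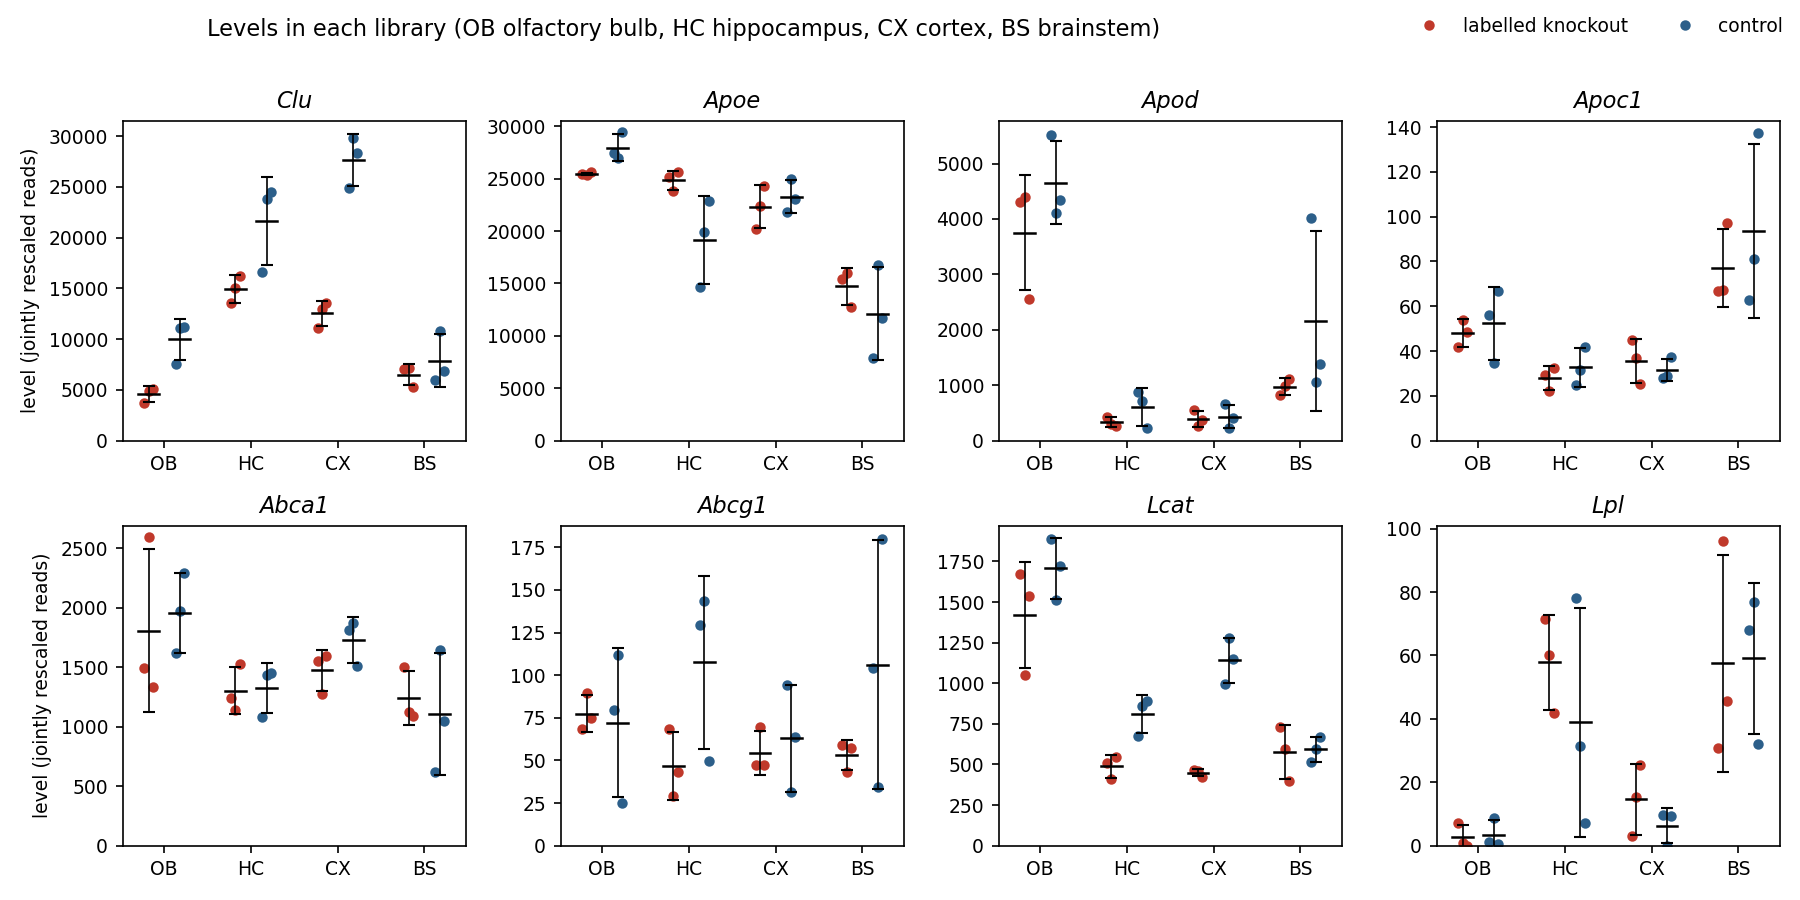
Level of each gene in all 24 libraries, with libraries labelled knockout in red left of controls in blue in each region, black bars for the mean and whiskers for 1 SD of 3 libraries; every vertical axis starts at 0. The genotypes do not overlap for Clu and Apoe in olfactory bulb, for Clu, Lcat and Apoe in hippocampus, and for Clu and Lcat in cortex. Clu, Apod and Lcat differ widely between regions.

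**Figure D3:**
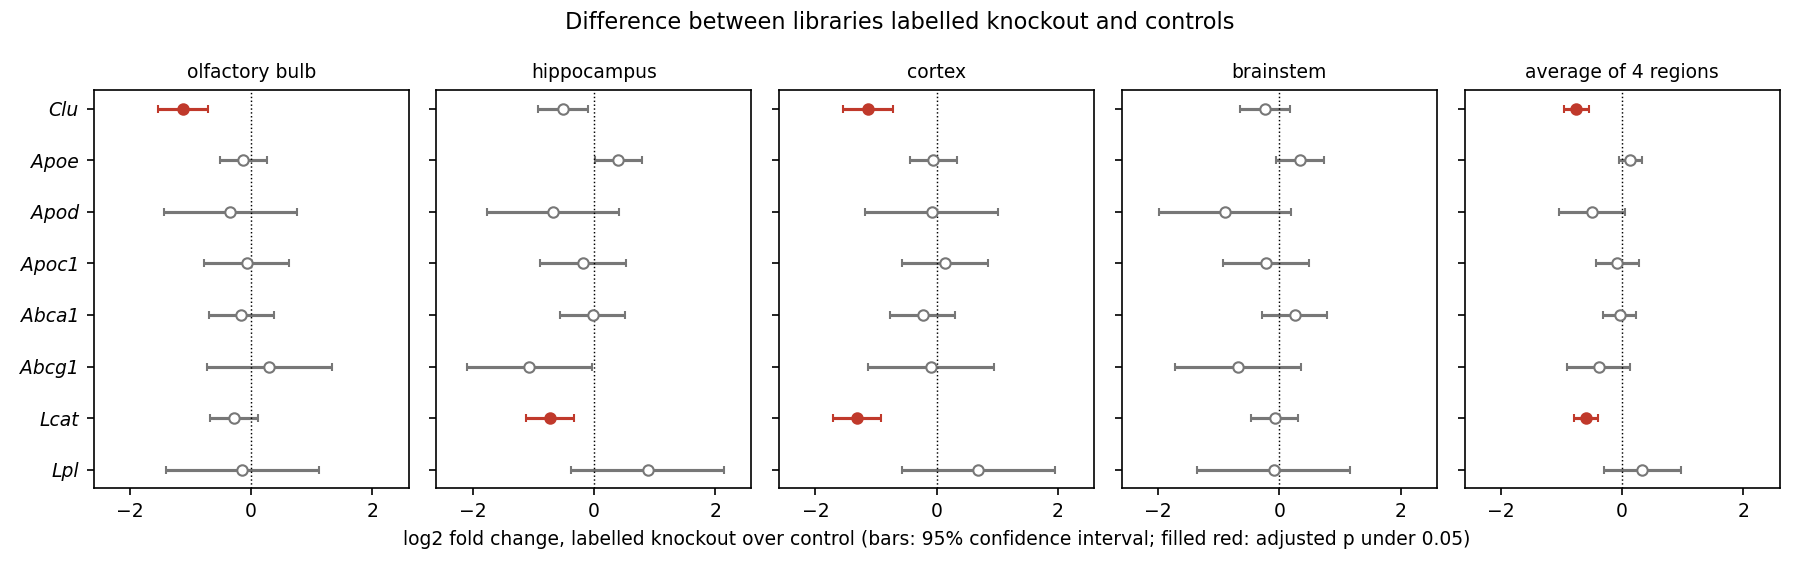
Log2 fold change of libraries labelled knockout over controls for the 8 genes in each region and averaged over the 4 regions, with 95% confidence intervals; filled red points have an adjusted p under 0.05. Clu is called in olfactory bulb, in cortex and on average, and Lcat in hippocampus, in cortex and on average.

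Clu (chr14:65968483-65981547, plus strand, mm10) encodes clusterin, also called apolipoprotein J, a secreted chaperone and lipid carrier. In cortex Clu stood at 11133, 12929 and 13552 in libraries labelled knockout, against 24856, 29805 and 28325 in controls. Its cortical mean of 12538 ± 1256 in libraries labelled knockout was 2.21-fold lower than the 27662 ± 2539.8 of controls (SD, n = 3 each; limma log2 fold change -1.14, SE 0.20, adjusted p = 0.00473), and the lowest control was well above the highest library labelled knockout. Olfactory bulb showed a fall of like size at a lower level, with 3671, 4896 and 5125 in libraries labelled knockout and 7595, 11081 and 11224 in controls, 2.18-fold lower without overlap (limma log2 fold change -1.12, SE 0.20, adjusted p = 0.0122). Choroid plexus markers in olfactory bulb summed to 2534 to 3046 in libraries labelled knockout and 2487 to 3011 in controls. Ttr, one of them, was at only 5.54 to 17.3 and 5.46 to 16.9 there, so other markers on the list made up nearly all of that sum. In cortex the sum was 5578, 12378 and 1143 in libraries labelled knockout and 97288, 8613 and 3523 in controls. Only control 1 lay above the libraries labelled knockout, and it had the lowest Clu of the cortical controls. The part of these markers in the Clu values was not tested.

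In hippocampus Clu stood at 13535, 15024 and 16245 in libraries labelled knockout and 16642, 23765 and 24455 in controls. The groups did not overlap, by a narrow margin, and the difference was not called (limma log2 fold change -0.52, SE 0.20, adjusted p = 0.211, 95% confidence interval of the log2 fold change -0.93 to -0.10). Choroid plexus markers were far lower in the same libraries labelled knockout, and their part in the hippocampal values was not tested. In brainstem Clu stood at 7059, 7132 and 5301 in libraries labelled knockout and 5953, 10816 and 6828 in controls. These groups overlapped (limma log2 fold change -0.24, SE 0.20, adjusted p = 0.612, interval -0.65 to 0.17). Averaged over the 4 regions Clu fell (limma log2 fold change -0.75, SE 0.10, adjusted p = 1.76e-05), and this call held with each of the 24 libraries left out in turn, at adjusted p 3.06e-06 to 9.24e-05. The calls in single regions depended on single libraries. In olfactory bulb the call was lost in 4 of 6 such fits, without control 2 or 3 or labelled knockout 1 or 2, at up to 0.133, with log2 fold changes of -1.30 to -0.97. In cortex it was lost in 2 of 6, without control 2 or labelled knockout 1, at up to 0.0515, with log2 fold changes of -1.21 to -1.05.

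Apoe (chr7:19696109-19699188, minus strand, mm10), the main apolipoprotein of brain lipoproteins, was not called in any region. In hippocampus Apoe stood at 25117, 23831 and 25594 in libraries labelled knockout and 14624, 19904 and 22881 in controls, every library labelled knockout above every control (limma log2 fold change 0.40, SE 0.19, adjusted p = 0.346, interval 0.01 to 0.79). Olfactory bulb had the opposite order, with 25437, 25373 and 25605 in libraries labelled knockout and 27421, 27007 and 29465 in controls. The 3 libraries labelled knockout there lay close together, under the lowest control (limma log2 fold change -0.13, SE 0.19, adjusted p = 1.0, interval -0.52 to 0.26). The groups overlapped in cortex, with Apoe at 20234, 22351 and 24345 in libraries labelled knockout and 21785, 24968 and 23109 in controls (limma log2 fold change -0.06, SE 0.19, adjusted p = 1.0, interval -0.45 to 0.33). In brainstem the values were 15465, 16028 and 12746 in libraries labelled knockout and 7881, 16792 and 11728 in controls, overlapping through control 2 (limma log2 fold change 0.34, SE 0.19, adjusted p = 0.405). Without that control the brainstem difference was called, higher, at adjusted p = 0.0198. The low hippocampal and brainstem controls, each control 1, were also those with the lowest astrocyte marker sums of their groups, 328131 and 148752, and the part of this in the differences was not tested.

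Counting genes whose 3 libraries of each genotype did not overlap gave 2 of the 8 in olfactory bulb, Clu and Apoe, both lower, where 14.0% of all genes did not overlap and 6.88% lay lower. In hippocampus there were 3, Clu and Lcat lower and Apoe higher, against 20.2% of all genes and 10.4% lower. Cortex had 2, Clu and Lcat, both lower, against 14.5% of all genes and 7.47% lower. Brainstem had 0, against 11.1% of all genes.

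Apod (chr16:31296192-31314808, minus strand, mm10) encodes a lipocalin that binds small lipids and is unrelated to the other apolipoproteins by sequence. It was not called in any region. In olfactory bulb Apod stood at 4309, 4395 and 2550.1 in libraries labelled knockout and 5513, 4113 and 4346 in controls, overlapping (limma log2 fold change -0.34, SE 0.52, adjusted p = 1.0). In brainstem it stood at 821, 979 and 1121 in libraries labelled knockout and 4017, 1060.4 and 1376 in controls (limma log2 fold change -0.90, SE 0.52, adjusted p = 0.432, interval -1.99 to 0.19). Control 1 set the brainstem mean, and with 1 library left out in turn the log2 fold change ranged over -1.28 to -0.32. Dcn, a fibroblast marker, was at 1688 in the same control against 186 and 122 in the other two, and its choroid plexus sum of 376902 was the highest of the 24 libraries. Their part in its Apod level was not tested. Hippocampus had 429, 305 and 263 in libraries labelled knockout and 884, 713 and 227 in controls, overlapping (limma adjusted p = 0.647). Cortex had 545, 266 and 366 in libraries labelled knockout and 653, 236 and 415 in controls, also overlapping (limma adjusted p = 1.0).

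Apoc1 (chr7:19689481-19692660, minus strand, mm10) lies 3448 bases from Apoe and encodes a small apolipoprotein known to inhibit lipoprotein lipase. Its level was low, at 41.7 to 54.0 in olfactory bulb libraries labelled knockout and 34.6 to 66.6 in controls. In hippocampus the range was 22.2 to 32.6 in libraries labelled knockout and 24.8 to 41.9 in controls, and in cortex 25.4 to 45.0 in libraries labelled knockout against 28.1 to 37.1 in controls. Brainstem held the highest values, 66.8 to 97.2 in libraries labelled knockout and 62.8 to 137 in controls. The genotypes overlapped in all 4 regions, and the limma log2 fold changes lay between -0.22 in brainstem and 0.14 in cortex with adjusted p of 0.827 or more. Averaged over the 4 regions, the interval of the log2 fold change was -0.44 to 0.27.

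Abca1 (chr4:53030787-53159895, minus strand, mm10), which loads cholesterol and phospholipid onto lipid-poor apolipoprotein E, was not called in any region. In olfactory bulb Abca1 stood at 1493, 2589.7 and 1332 in libraries labelled knockout and 1615, 1972 and 2287 in controls, with labelled knockout 2 the highest of the 6. Cortical values were 1552, 1276 and 1589 in libraries labelled knockout and 1809, 1869.7 and 1510.1 in controls. Hippocampal values were 1245, 1140.5 and 1522 in libraries labelled knockout and 1082, 1438 and 1455 in controls, and the groups overlapped in both regions. In brainstem Abca1 stood at 1501, 1121 and 1092 in libraries labelled knockout and 623, 1645 and 1046 in controls, whose own spread covered all 3 libraries labelled knockout. The largest regional log2 fold change was 0.26 in brainstem (limma adjusted p = 0.693). On average over the regions it was -0.04, with an interval of -0.31 to 0.23 and an adjusted p of 0.926, so a change of 1.5-fold or more in the average would lie outside the interval.

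Abcg1 (chr17:31057675-31117988, plus strand, mm10), which passes cholesterol on to particles that already carry lipid, was detected at a low level that varied widely between control libraries. In hippocampus Abcg1 stood at 68.3, 28.9 and 43.0 in libraries labelled knockout and 129, 144 and 49.7 in controls, overlapping through control 3 (limma log2 fold change -1.07, SE 0.50, adjusted p = 0.346, unadjusted p = 0.0438). Brainstem had 59.1, 43.2 and 57.2 in libraries labelled knockout and 104, 34.4 and 180.0 in controls, in which control 2 lay below and controls 1 and 3 above all libraries labelled knockout (limma log2 fold change -0.69, SE 0.50, adjusted p = 0.552). Ranges also overlapped in olfactory bulb, 68.1 to 89.3 in libraries labelled knockout against 25.1 to 112 in controls, and in cortex, 47.1 to 69.5 in libraries labelled knockout against 31.5 to 94.1 in controls. Abcg1 was called in no region, and the interval of its log2 fold change averaged over the regions was -0.90 to 0.13.

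Lcat (chr8:105939551-105943382, minus strand, mm10) encodes the cholesterol-esterifying enzyme of lipoproteins, and in cortex it showed the largest fall of the 8 genes. The RefSeq promoter table of GRCm38.p6, which covers 250 bases before to 50 after each start site, was matched by symbol for 4 of the 8 genes (not Clu, Apoc1, Abcg1 or Lpl) and held 1 window for Lcat, 3 for Apoe and 1 each for Abca1 and Apod. Shown are the bases before the start site for Lcat, which was called, and for Apoe and Abca1, which were not. Capitals mark the nuclear factor I core site TTGGC on either strand (GCCAA when read on the strand shown), and all 3 sequences run 5′ to 3′ on the minus strand of the chromosome.
Lcat, chr8:105943403-105943589: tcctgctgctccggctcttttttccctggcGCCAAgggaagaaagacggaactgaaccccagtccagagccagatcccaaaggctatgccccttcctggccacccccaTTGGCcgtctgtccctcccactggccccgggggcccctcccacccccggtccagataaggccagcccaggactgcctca
Apoe, chr7:19699189-19699438: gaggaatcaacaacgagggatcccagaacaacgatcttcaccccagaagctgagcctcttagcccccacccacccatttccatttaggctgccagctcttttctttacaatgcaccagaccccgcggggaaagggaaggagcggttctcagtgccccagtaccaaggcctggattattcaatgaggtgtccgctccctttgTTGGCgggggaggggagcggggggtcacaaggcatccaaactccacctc
Abca1, chr4:53159896-53160145: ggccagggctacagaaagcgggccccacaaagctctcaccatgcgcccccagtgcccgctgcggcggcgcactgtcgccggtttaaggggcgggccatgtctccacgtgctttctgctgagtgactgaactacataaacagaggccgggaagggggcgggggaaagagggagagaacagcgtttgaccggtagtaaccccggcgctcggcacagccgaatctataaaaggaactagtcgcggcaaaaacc
The Lcat stretch stops short of the annotated end of Slc12a4, the next gene on the same strand 207 bases upstream. The whole Lcat window held 3 core sites, beginning 237, 157 and 79 bases before the start, of which the first lies within Slc12a4. Of 32851 promoter windows, 46.7% held at least 1 such match and 3.75% at least 3. Among the 3 Apoe windows 2 held 1 match each, and those of Abca1 and Apod held none. The full palindrome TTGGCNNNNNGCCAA, in 0.0365% of all windows, and the liver X receptor repeat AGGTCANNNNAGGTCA, in 0.0152%, had no match on either strand in any of the 6 windows. Only exact matches were sought, so a site that differs from these letters at a fixed base would be missed. A match is a description of letters and not of binding.

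In cortex Lcat stood at 465, 461 and 423 in libraries labelled knockout, against 996, 1278 and 1148 in controls. Its mean of 449.8 ± 23.4 in libraries labelled knockout was 2.54-fold lower than the 1141 ± 141 of controls (SD, n = 3 each; limma log2 fold change -1.32, SE 0.19, adjusted p = 0.000439), with no overlap. This call held with each cortical library left out, at adjusted p 0.00129 to 0.0122. In hippocampus the values were 508, 411 and 548 in libraries labelled knockout and 677, 857 and 893 in controls, also without overlap and 1.65-fold lower (limma log2 fold change -0.72, SE 0.19, adjusted p = 0.0388). The hippocampal call was lost with any of the 6 libraries left out (adjusted p 0.0528 to 0.2) and with no filter on low values (0.0846). Choroid plexus markers were lower in the same hippocampal libraries labelled knockout, and their part in the Lcat values was not tested. Olfactory bulb, where Lcat was most abundant, gave 1672, 1052 and 1535 in libraries labelled knockout and 1890.0, 1514 and 1721 in controls, overlapping (limma log2 fold change -0.29, SE 0.19, adjusted p = 1.0, interval -0.68 to 0.11). Brainstem gave 729, 596 and 400.3 in libraries labelled knockout and 517, 593 and 669 in controls, with controls inside the range of the libraries labelled knockout (limma log2 fold change -0.08, SE 0.19, adjusted p = 0.897, interval -0.47 to 0.31). On average over the regions Lcat fell (limma log2 fold change -0.60, SE 0.10, adjusted p = 0.000216) and was called in 24 of 24 fits with a library left out, at adjusted p 6.93e-05 to 0.000745. An antisense gene model, Gm16156, spans all 3832 bases of Lcat and is not analysed here, and strand-specific counting is not stated, so reads of the pair cannot be told apart. Slc12a4, the upstream neighbour, which encodes a potassium-chloride cotransporter, stood at 146, 139 and 152 in cortical libraries labelled knockout and 244, 199 and 207 in controls (limma log2 fold change -0.54, SE 0.24, adjusted p = 0.775).

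**Figure D4:**
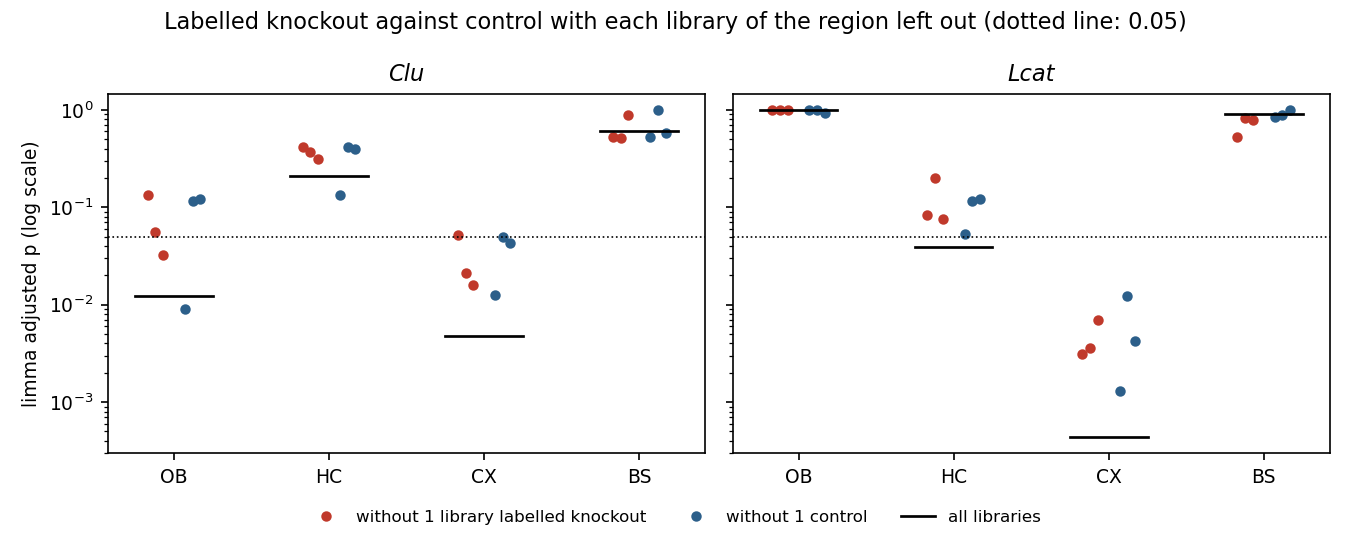
Adjusted p of Clu and Lcat, labelled knockout against control, on a log scale for each region, with points for fits that leave out 1 library of that region and bars for the fit to all libraries. All cortical Lcat fits lie under the dotted line at 0.05, all hippocampal Lcat fits with a library left out lie above it, and the Clu fits of olfactory bulb lie on both sides.

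Lpl (chr8:68880491-68907448, plus strand, mm10) was hardly detected in olfactory bulb, where 7, 1 and 0 reads were counted in libraries labelled knockout and 1, 11 and 1 in controls. A count of 0 in olfactory bulb labelled knockout 3 allows a level of up to 3.75, the value of 3 reads there, which covers counting error only. In cortex the levels were 3.14, 15.4 and 25.4 in libraries labelled knockout and 9.73, 0 and 9.28 in controls, the 0 allowing up to 3.78. Hippocampus had 71.6, 60.0 and 41.8 in libraries labelled knockout and 78.1, 31.5 and 7.05 in controls, and brainstem 30.8, 96.1 and 45.8 in libraries labelled knockout and 68.1, 76.9 and 32.1 in controls. Genotypes overlapped in each region. The intervals of Lpl were the widest of the 8 genes, with -0.37 to 2.15 in hippocampus (limma adjusted p = 0.585).

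Whether the difference between genotypes itself differed between regions was tested by an F test over the 4 regions, which called 0 of the 8 genes, against 0.0552% of all genes. Clu and Lcat were the 2 with an unadjusted p under 0.05. For Lcat the limma adjusted p was 0.182, and edgeR called 0 of the 8. DESeq2, by a likelihood-ratio test in place of the F test, called 1, Lcat, at an adjusted p of 0.00416. Lcat was also called by limma without brainstem labelled knockout 3, the shallowest library, at 0.0334. For Clu the adjusted p was 0.404, and 0.0302 without brainstem control 2. Of the 6 comparisons between 2 regions, each with 0 of 8 genes called (with at most 0.0395% of all genes called, for cortex against brainstem, and 0.0237% for hippocampus and for olfactory bulb against brainstem), the lowest p of the 8 was that of Lcat in cortex against brainstem (limma log2 fold change -1.24, SE 0.27, adjusted p = 0.0757, unadjusted p = 8.96e-05, interval -1.79 to -0.68). It was called without brainstem control 2 or labelled knockout 3, at down to 0.0126. The next lowest was Lcat in olfactory bulb against cortex (limma log2 fold change 1.03, SE 0.27, adjusted p = 0.999, unadjusted p = 0.00071), a comparison in which no gene of the 12673 was called, 1 of the 8 (Lcat) having an unadjusted p under 0.05. Abcg1 in olfactory bulb against hippocampus differed by more, with a wider error (limma log2 fold change 1.36, SE 0.71, adjusted p = 0.832, interval -0.10 to 2.83). With all libraries, therefore, a larger fall of Lcat in cortex than elsewhere was not established by limma.

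Among control astrocytes, 7 of the 8 genes differed between regions by the limma F test, where 23.5% of 12759 genes did, and the exception was Abcg1 (adjusted p = 0.621). Clu was highest in cortex, at 27662 ± 2539.8, then hippocampus at 21621 ± 4326, olfactory bulb at 9967 ± 2055 and brainstem at 7866 ± 2592 (SD, n = 3 each). Of the steps in this order only that from hippocampus to olfactory bulb was called (log2 fold change 1.12, SE 0.20, limma adjusted p = 0.000278). Cortex, at 24856 to 29805, lay above hippocampus, at 16642 to 24455, without overlap, but that step was not called (log2 fold change 0.37, SE 0.20, limma adjusted p = 0.453). Apoe had another order, 27964 ± 1316 in olfactory bulb, 23287 ± 1599 in cortex, 19136 ± 4182 in hippocampus and 12133 ± 4469 in brainstem. Its one step past the threshold was hippocampus over brainstem (log2 fold change 0.70, SE 0.19, adjusted p = 0.0181), which was lost in 4 of 6 fits with a library left out, at up to 0.145, and with control libraries alone (0.141). Apod was highest in olfactory bulb, 4657 ± 749.8, and brainstem, 2151 ± 1623, and lower in hippocampus, 608 ± 341, and cortex, 435 ± 209.5. The step between brainstem and hippocampus was called (log2 fold change 1.77, SE 0.52, adjusted p = 0.0454), but was lost in 4 of 6 fits with a library left out, at up to 0.224, and with control libraries alone (0.173). For both genes the 4 libraries were brainstem controls 1 and 3 and hippocampal controls 2 and 3.

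Lcat ran from 1708 ± 188 in olfactory bulb over 1141 ± 141 in cortex and 809 ± 116 in hippocampus to 593 ± 75.7 in brainstem. None of its 3 steps was called (adjusted p = 0.0577, 0.235 and 0.197 in that order), while the ends were (log2 fold change 1.52, SE 0.19, adjusted p = 9.9e-07). The first step, olfactory bulb over cortex, was called with control libraries alone (0.0457), on the deposited scale (0.00111) and with replicate blocks (0.0409). Abca1 followed the same order of regions, with a mean of 1958 in olfactory bulb, 1729.8 in cortex, 1325 in hippocampus and 1105 in brainstem, and no step called. Its F test passed narrowly (adjusted p = 0.0372) and did not pass with edgeR, with control libraries alone or without the filter. Apoc1, at 93.6 ± 38.8, and Lpl, at 59.0 ± 23.7, were highest in brainstem, with no step to the next region called. Abcg1 averaged between 63.0 in cortex and 108 in hippocampus.

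Between pairs of control regions, 4 of 8 genes were called for olfactory bulb against hippocampus, where 10.0% of all genes were, with Apod and Lcat higher and Clu and Lpl lower in olfactory bulb. The Lpl call was lost in 4 of 6 fits with a library left out, without hippocampal control 1 or 2 or olfactory bulb control 1 or 3, at up to 0.237, with control libraries alone (0.0679) and without the filter (0.0625). Its control levels overlapped, at 0.550 to 8.85 in olfactory bulb and 7.05 to 78.1 in hippocampus. Olfactory bulb against cortex gave 2, Apod higher and Clu lower, against 8.55% of all genes. For olfactory bulb against brainstem 4 were called, Apoe, Abca1 and Lcat higher and Lpl lower, against 19.5%, and that of Abca1 was lost without brainstem control 1 or olfactory bulb control 3, at up to 0.117. Hippocampus against cortex gave 0 with limma, against 1.19% of all genes, with 2 (Lcat and Lpl) at an unadjusted p under 0.05 and 0 with edgeR. In hippocampus against brainstem 4 were called, Clu and Apoe higher and Apod and Apoc1 lower, against 7.59%, and that of Apoc1 was lost without brainstem control 3 or hippocampal control 1, at up to 0.115. Cortex against brainstem gave the most, 6, with Clu, Apoe and Lcat higher and Apod, Apoc1 and Lpl lower in cortex, against 15.3% of all genes. Of these, Apod was lost without brainstem control 1 or cortical control 2, at up to 0.0588, and with control libraries alone (0.0531), Apoc1 without brainstem control 3 (0.0645) and Lpl without cortical control 2 (0.0545). The share of Rn45s reads was 0.966% to 2.93% in olfactory bulb and hippocampal controls and 18.0% to 25.6% in cortical and brainstem controls. Oligodendrocyte lineage markers summed to 54349.7 to 93882 in brainstem controls against 10193 to 16835 in olfactory bulb controls. Npy and Frzb averaged 766 and 718 in olfactory bulb controls. In the other control regions they averaged 2.10 to 12.3 and 2.13 to 17.8. No markers of cells particular to olfactory bulb were listed. The part of any of these in the regional levels, that of Apod in olfactory bulb among them, was not tested.

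Between genotypes, other genes of the pathway were called in hippocampus and on average over the regions, all of them lower. With only 2 and 3 such genes, their shares could not be told apart from those of all genes. Of 81 other genes in 6 lists (other apolipoproteins, lipoprotein receptors, other lipid ABC transporters, sterol-responsive regulators, lipases and remodelling enzymes, and intracellular cholesterol transport) 64 were tested, and none was called higher. In olfactory bulb, cortex and brainstem limma called 0 of 64, with 3, 7 and 10 at an unadjusted p under 0.05, edgeR called 0 in each, and DESeq2 called 0, 1 and 0. In hippocampus 2 were called, both lower, which is 3.12% of the 64 against 2.51% of all genes and 1.79% in that direction. There edgeR called 2 and DESeq2 5. Abca4, a retinoid-lipid transporter best known from photoreceptors, stood at 5.64, 52.2 and 7.17 in hippocampal libraries labelled knockout and 514, 326 and 415 in controls (limma log2 fold change -4.42, SE 0.82, adjusted p = 0.00591). Ttr, a choroid plexus marker, was at 2571, 5636 and 2001 in the same libraries labelled knockout and 134182, 66523 and 125866 in controls, and its part in the Abca4 values was not tested. Lipa, the lysosomal acid lipase that frees cholesterol from its esters, stood at 166, 131 and 104 in libraries labelled knockout and 326, 340.2 and 329 in controls (log2 fold change -1.31, SE 0.28, adjusted p = 0.00946), and was not called without labelled knockout 3 (0.0839).

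Averaged over the regions, 3 of the 64 were called, all lower, which is 4.69% against 5.88% of all genes and 3.09% in that direction. On this average edgeR called 3 and DESeq2 5. They were Abca4 (limma log2 fold change -1.99, SE 0.41, adjusted p = 0.00554), Abca5, a transporter of the same family (-0.46, SE 0.13, adjusted p = 0.0273), and Vldlr, a receptor for apolipoprotein E and reelin (-0.56, SE 0.12, adjusted p = 0.0033). In cortex Vldlr stood at 267, 295 and 238 in libraries labelled knockout and 414, 510.3 and 470.4 in controls, without overlap. Abca5 in cortex was at 416, 413 and 391 in libraries labelled knockout and 741, 1008 and 738 in controls, and its averaged call was lost in 8 of 24 fits with a library left out. Medians over the 64 genes were 0.07 in brainstem, -0.09 in cortex, -0.05 in olfactory bulb, -0.01 in hippocampus and 0.00 on average, close to those of all genes. None of the 9 other apolipoproteins listed passed the filter on low values. Apoc2 and Apoc4, which lie in the Apoe cluster, were listed at 0 in all 24 libraries.

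Genes whose levels over the 24 libraries were most like those of each of the 8 were sought by Pearson's r of log2(level + 5) among 8489 genes with a mean level of at least 50. These libraries differ in region, genotype and depth, which act on many genes at once, so the values are descriptions. Closest to Clu was Scara3, a scavenger receptor-like protein (r = 0.95), which stood at 333, 265 and 272 in cortical libraries labelled knockout and 690.0, 883 and 846 in controls. Spag1 (0.89) and Adcy2 (0.88) came next. Apoe was most like Glul, the glutamine synthetase of astrocytes (0.95), Gpm6b (0.94) and Sgip1 (0.94). Nearest to Apod were Col12a1 (0.91), Zfhx4 (0.90) and Arhgef6 (0.90). Lcat was most like Bmp1 (0.87), Gpsm2 (0.85) and Cybrd1 (0.84). For Abca1 they were Pcdh17 (0.86), Tsc22d4 (0.82) and Kidins220 (0.81), for Apoc1 Gpd1 (0.85), Lpar1 (0.85) and Acvr1c (0.84), for Lpl Calcrl (0.81), Heg1 (0.79) and Tsga10 (0.79), and for Abcg1 Hmcn1 (0.75), Il10rb (0.73) and Piezo1 (0.69). Among the 8 themselves the highest r was 0.77, between Apoe and Abca1, and Clu and Lcat, the 2 called between genotypes, had an r of -0.06 over all libraries.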

How the data were processed

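Sorted astrocytes were profiled in 24 libraries prepared with the Trio RNA-Seq kit from 5 ng of RNA each, per the labels. The submitters' processing notes list FastQC, STAR 2.5.0a, DESeq2 1.20.0 and mm10, and the counting tool is not given in the sources used here. Each library has 1 table in which the authors deposited a normalised signal for each gene. All values were whole reads divided by 1 factor per library within 0.01 read, so reads were recovered. Factors of the 6 cortical libraries were 1.26 to 1.27 times the joint median-of-ratios factors and those of the other 18 were 0.994 to 0.998 times, so levels and regional comparisons used joint factors and genotype comparisons the deposited values. Of the gene names 27 had become dates, and 0 mitochondrially encoded genes were listed.

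A gene was tested if 3 or more libraries reached a value of 20, which left 12673 genes on the deposited and 12759 on the joint scale, and all 8 genes described passed. Group means for the 8 groups were estimated by limma 3.58.1 in R 4.3.3 from log2(value + 5), using its trend and robust options, and tests were two-sided with Benjamini-Hochberg adjustment within a contrast. The step was tested on simulated data. Alternatives were a pseudocount of 1, no filter, the other scale, edgeR 4.0.16 (quasi-likelihood, TMM) and DESeq2 1.42.0 on recovered reads, replicate blocks, a region or the controls alone, and each library left out. Single contrasts of the genotype difference between 2 regions were added after the data were seen. Coordinates and exon lengths are from GENCODE vM21. The 8 genes, 6 pathway lists, marker lists and tests were chosen with earlier results of these data known. Named were the 8 genes, pathway genes called between genotypes, Nfia, marker genes beside a result and the 3 most alike genes. Slc12a4, Apoc2, Apoc4, Rn45s, Npy and Frzb were added after their values were seen.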

Additional observations from a re-analysis of the deposited data

Results flagged for a closer look

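In hippocampus all 3 libraries labelled knockout had more Apoe than all 3 controls, and in olfactory bulb all 3 had less, so the genotypes were ordered in opposite directions in these regions. The log2 fold change in hippocampus exceeded that in olfactory bulb by 0.53. The difference itself was not called (limma, olfactory bulb minus hippocampus -0.53, SE 0.27, unadjusted p = 0.0563, adjusted p = 0.802), nor was Apoe in the F test over the 4 regions (adjusted p = 0.796). Ttr, a choroid plexus marker, was at 2571, 5636 and 2001 in hippocampal libraries labelled knockout and 134182, 66523 and 125866 in controls. In olfactory bulb it was at 17.3, 5.54 and 9.99 in libraries labelled knockout and 6.61, 16.9 and 5.46 in controls, and its part in the Apoe values was not tested.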

How the results depend on the processing

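Of 1614 recomputed values of single genes, 1513 kept their direction and their side of the threshold, 48 lost a call, 15 gained one, 38 changed sign with no call on either side, and none reversed a call. Most of these values belonged to comparisons not called with all libraries, such as those of Apoe between genotypes. The 1513 include values that stayed uncalled, so that number does not measure how well the calls held. Without the filter on low values 0 of the 8 genes were called in hippocampus. DESeq2 called 1 (Lcat) in its likelihood-ratio test of the genotype difference among regions. With control libraries alone 2 of 8 were called for hippocampus against brainstem, and the deposited scale gave 4 for olfactory bulb against cortex. With each library left out, the genes called among the 8 numbered 0 to 1 in olfactory bulb, 0 to 0 in hippocampus, 1 to 2 in cortex, 0 to 1 in brainstem, 2 to 2 on average, 0 to 1 in the F test and 1 to 4 for hippocampus against brainstem controls. The causes were not tested.

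Counts over all genes moved more. In olfactory bulb 11 genes were called, against 58 with DESeq2, 92 with the region alone and 22 with replicate blocks. In hippocampus 318 were called, against 638 with DESeq2 and 90 to 251 with a library left out. Cortex had 41, against 92 with DESeq2, 22 with no filter, 176 alone and 16 to 25 with a library left out. Brainstem had 98, against 166 with DESeq2, 32 with edgeR, 0 alone and 17 to 892 with a library left out. The F test called 7, against 86 with the likelihood-ratio test of DESeq2, 15 with edgeR, 12 with a pseudocount of 1, 18 with blocks and 0 without the filter. Among controls, hippocampus against cortex called 152, against 43 with controls alone, 884 on the deposited scale, 96 with no filter and 309 with blocks, and the deposited scale gave 2088 in place of 1091 for olfactory bulb against cortex and 2942 in place of 1951 for cortex against brainstem.

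Whether replicate numbers pair the samples was not settled, since differently numbered libraries were not compared. Same-numbered libraries of the 2 genotypes deviated together at r of -0.115 to 0.32, with 5 of 12 pairs over 0.1. Same-numbered libraries of 2 regions did so at r of -0.196 to 0.323, with 10 of 36 over 0.1. With replicate blocks the 8 genes gave 1 call in olfactory bulb, 1 in hippocampus, 2 in cortex, 0 in brainstem, 2 on average and 0 in the F test, the same numbers as without. Among control regions blocks added 1 call in each of 4 comparisons, Abca1 in cortex against brainstem (0.0417), and olfactory bulb against brainstem (Apod, 0.0302), cortex (Lcat, 0.0409) and hippocampus (Apoe, 0.0185). Depth limits Lpl, Apoc1 and Abcg1 most, and brainstem labelled knockout 3, where 3 reads are a level of 17.2.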

Other observations

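Within groups, after the mean of each region and genotype was removed, Clu and Apoe varied together over the 24 libraries (r = 0.79), as did Apoe and Abca1 (0.71), while Apod varied against Apoe (-0.77) and Clu (-0.69). Clu and Lcat, both lower in the libraries labelled knockout, had an r of 0.21 within groups. Libraries of a group also differ in depth and in marker sums, so the values are descriptions.

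Among the 64 other pathway genes tested, 25 (39.1%) differed between control regions by the limma F test, against 23.5% of all genes, and 23 by edgeR. There were 21 genes (32.8%) called for olfactory bulb against brainstem, against 19.5% of all genes, 17 (26.6%) for cortex against brainstem, against 15.3%, and 1 (1.56%) for hippocampus against cortex, against 1.19%.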
